A study of Mus musculus with 2 samples.

Results

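Bidirectional protein-coding promoters are stretches of DNA from which a pair of protein-coding genes is read in opposite directions. They were taken here as pairs of GENCODE vM21 protein-coding genes on opposite strands of chromosomes 1 to 19, placed head to head, with gene-level 5′ ends at most 1000 bp apart and gene bodies that did not overlap. The gene-level 5′ end is the outermost annotated start of a gene. This gave 734 pairs with 1448 different genes, which is 6.96% of the 20807 protein-coding genes of these chromosomes, and 20 genes stood in more than 1 pair. The region measured for each pair was the interval between both 5′ ends with 500 bp added on each side. Pairs are named with the minus-strand gene first.

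The assay was DNase-seq, in which nuclei are digested with DNase I and the ends released at accessible DNA are sequenced. The material was heart tissue of mice of strain B6NCrl at postnatal day 0, and the labels name no treatment, no engineered allele and no sex. The series held 1 group of 2 libraries, numbered as biological replicates 1 and 2, whose labels carry the same donor entry but separate tissue samples, so that the spread between them may be partly technical. There was therefore no second group to test against, and each value below is given for both libraries or as their mean ± SD (n = 2).

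In mammals many head-to-head promoters are CpG islands, lack a TATA box and serve housekeeping genes such as those for DNA repair, RNA processing and mitochondria. Transcription starts on both strands from the edges of 1 nucleosome-depleted stretch, where factors such as NF-Y, ETS proteins, SP proteins, NRF1 and YY1 bind. DNase I cuts this depleted stretch readily, so that such a promoter usually appears as a peak, the most accessible short segment, inside a hotspot, the wider accessible domain. In heart muscle, a tissue rich in mitochondria, several genes of oxidative metabolism lie in such pairs.

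The intervals between the 5′ ends of 8 pairs are printed below because they cover the range of accessibility and of sequence described later. They were read from the plus strand of GRCm38.p6, whose primary chromosomes are those of mm10, the build of the deposited files. Capitals mark every match, on either strand, to the letters searched: CCAAT (NF-Y), GGGCGG (SP), CCGGAAG (ETS), GCATGCGC (NRF1), ACTACAA (ZNF143), CTCGCGAG (BANP) and, for factors of the GATA family, AGATAA, so that a CCAAT box on the minus strand reads ATTGG. No annotated exon lies between the 5′ ends of these pairs. The pair of Mrps12, a protein of the small mitochondrial ribosomal subunit, and Sars2, the mitochondrial seryl-tRNA synthetase, lies at chr7:28741821-28741991. The pair of Brca1, a DNA repair gene, and Nbr1, an autophagy receptor gene, lies at chr11:101551956-101552148. Npc2 (lysosomal cholesterol transport) and Isca2 (iron-sulfur cluster assembly) face each other at chr12:84773153-84773250. The interval of Mrps18b, for another mitochondrial ribosomal protein, and Ppp1r10, for a regulatory subunit of protein phosphatase 1, is chr17:35916390-35916433. Swt1/Trmt1l lies at chr1:151428456-151428541, and Styxl1/Mdh2, which includes mitochondrial malate dehydrogenase, at chr5:135778386-135778479. The last pair of intervals holds no match: Cdca2/Kctd9 at chr14:67715842-67715936, with Cdca2 for a mitotic chromatin regulator, and Col4a4/Col4a3 at chr1:82586850-82586920, for chains of basement membrane collagen.
Mrps12/Sars2: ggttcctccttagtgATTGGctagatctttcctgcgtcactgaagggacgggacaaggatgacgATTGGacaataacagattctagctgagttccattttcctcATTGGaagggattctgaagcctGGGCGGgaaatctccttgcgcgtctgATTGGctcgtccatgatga
Brca1/Nbr1: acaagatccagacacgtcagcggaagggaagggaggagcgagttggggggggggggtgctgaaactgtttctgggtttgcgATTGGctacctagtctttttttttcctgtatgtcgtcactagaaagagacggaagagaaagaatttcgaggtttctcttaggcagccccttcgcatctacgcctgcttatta
Npc2/Isca2: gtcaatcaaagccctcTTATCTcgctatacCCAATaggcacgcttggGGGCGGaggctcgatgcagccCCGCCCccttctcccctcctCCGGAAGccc
Mrps18b/Ppp1r10: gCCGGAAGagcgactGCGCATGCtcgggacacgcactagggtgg
Swt1/Trmt1l: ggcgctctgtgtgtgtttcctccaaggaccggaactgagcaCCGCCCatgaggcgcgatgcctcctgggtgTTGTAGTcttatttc
Styxl1/Mdh2: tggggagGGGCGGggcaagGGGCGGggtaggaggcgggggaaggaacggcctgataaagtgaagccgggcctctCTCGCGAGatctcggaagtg
Cdca2/Kctd9: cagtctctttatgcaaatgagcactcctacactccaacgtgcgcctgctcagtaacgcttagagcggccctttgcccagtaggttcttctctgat
Col4a4/Col4a3: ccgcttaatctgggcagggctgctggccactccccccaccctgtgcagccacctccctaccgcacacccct

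Peaks were the authors' calls, each 150 bp long, and the value of a peak is the signal value deposited with it. Its highest value was 150 in both libraries, so that differences between very open sites are compressed. Replicate 1 had 160637 peaks on chromosomes 1 to 19 and replicate 2 had 141255, with median values of 36 and 35. The sequencing depth behind them is unknown. Of 10 heart muscle markers, 7 had a peak within 500 bp of the gene-level 5′ end in both libraries, among them Myh6 (110 and 100) and Tnnt2 (115 and 102), and Actc1, Myl3 and Nkx2-5 had none there. Of 10 markers of other tissues only Gfap had one in both libraries (50 and 68), Neurod1 had one of 16 in replicate 2 only, and 8 had none.

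A peak centred in the region was present in both libraries at 703 of the 734 bidirectional promoters, or 95.8% (95% Wilson interval 94.1 to 97.0, which covers counting error only). Over all protein-coding genes, each measured in a window as long as the median region, this share was 59.1%. Single promoters, meaning the 16315 protein-coding genes with no other gene's 5′ end within 1000 bp and measured in the same window, had a peak in both libraries at 52.0%. The difference between bidirectional and single promoters was 43.7 percentage points for a peak in both libraries. Counted per library it was 40.9 points in replicate 1 and 42.1 in replicate 2, or 41.5 ± 0.872 (SD, n = 2). Head-to-head pairs of a protein-coding and a long noncoding RNA gene fell between them, with 559 of 676 (82.7%), and protein-coding pairs that overlap at their 5′ ends had 393 of 424 (92.7%). The 734 regions held 1262 peaks in replicate 1 and 1246 in replicate 2.

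The highest peak of a bidirectional promoter had a median value of 104 in replicate 1 and 100 in replicate 2, over the 704 and 705 pairs with a peak. The medians for single promoters were 82 and 79, over 8980 and 8801 genes with a peak. The difference of 21.5 ± 0.707 (SD, n = 2) was larger than the difference of 4 between the libraries. Values of 100 or more were reached at 59.5% and 51.8% of the bidirectional promoters with a peak and at 28.5% and 22.8% of the single ones. Over all peaks of the genome these shares were 3.60% and 2.93%. The medians were 96 and 92 for coding and noncoding pairs and 100 and 96 for overlapping coding pairs, so that the bidirectional promoters were higher than each by 8 and 4 in both libraries.

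Part of the spread between these classes went with CpG content. The ratio of observed to expected CpG over 1000 bp had a median of 0.776 at bidirectional promoters and 0.442 at single ones, and 47.3% of single promoters but 4.09% of bidirectional ones had a ratio under 0.4. Among promoters with a ratio over 0.8, a peak in both libraries was found at 322 of 324 bidirectional promoters (99.4%) and at 95.6% of single ones. With a ratio from 0.6 to 0.8 the shares were 98.4% and 88.0%, and with a ratio from 0.4 to 0.6 they were 92.1% and 68.5%. Under 0.4 they were 40.0% (12 of 30) and 15.4%. The bidirectional promoters thus had the higher share in each of the 4 classes, and the difference was smallest where CpG was densest. The median highest value differed likewise, with 102.5 ± 2.12 (SD, n = 2) against 93.0 ± 1.41 above a ratio of 0.8, and 101.5 and 98 against 69 and 65.5 from 0.4 to 0.6. No test across samples was possible in 1 group.

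**Figure D1:**
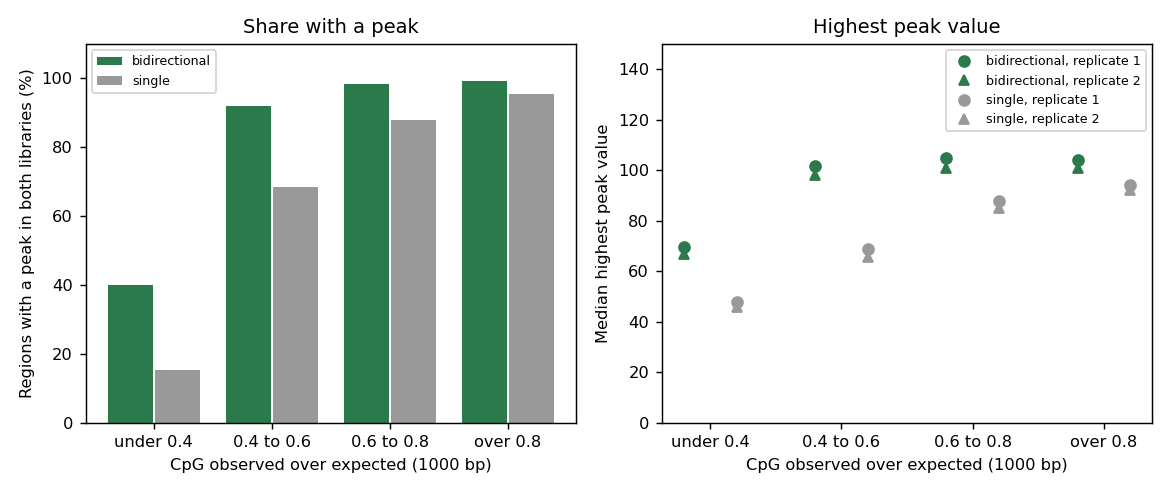
Bidirectional (green) and single (grey) promoters by their ratio of observed to expected CpG over 1000 bp. Bars on the left give the share of regions with a peak in both libraries, and points on the right give the median highest peak value over regions with a peak, with circles for replicate 1 and triangles for replicate 2; bidirectional promoters lie above single ones in all 4 classes.

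The libraries were alike in the place and value of the highest peak of a pair, but less so in the number of peaks. The highest peaks of both libraries overlapped in 668 of the 703 pairs (95.0%), their values differed by a median of 6, and 539 pairs (76.7%) differed by at most 10. Values were lower in replicate 2 in 479 pairs, higher in 192 and equal in 32. Across the 703 pairs, which share their libraries and are not independent, Spearman's rho was 0.895 and Pearson's r was 0.921. Single promoters had the same median difference of 6, overlap in 94.9% and a Spearman's rho of 0.954. The number of peaks was the same in both libraries in 411 of the 703 pairs and in 5661 of 8491 single promoters. The 5 largest differences were at Ccnb1ip1/Parp2 (123 and 94), H2-T22/Gm6034 (108 and 82), Aamdc/Rsf1 (129 and 104), 4921536K21Rik/Dusp18 (111 and 88) and Gatc/Triap1 (74 and 96), and in all but the last replicate 1 was higher. A peak in 1 library only was found at Duox2/Duoxa2 (32 in replicate 1), Tssk3/Fam229a (40 in replicate 2) and Ddx25/Pus3 (22 in replicate 2).

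**Figure D2:**
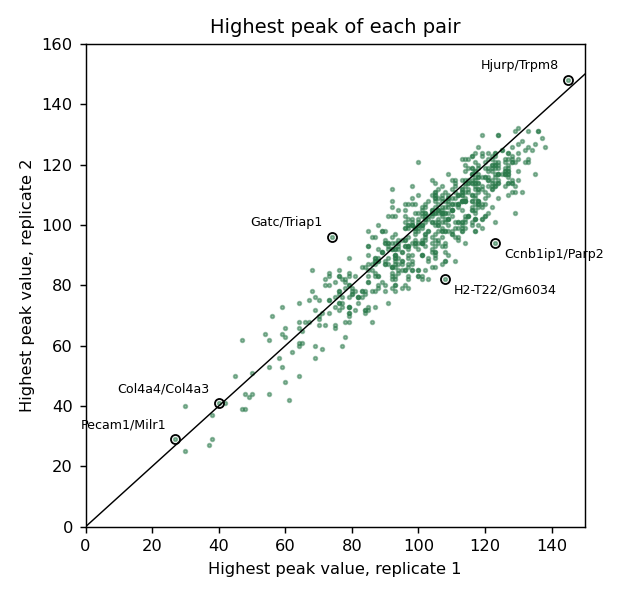
Highest peak value of each of the 703 pairs with a peak in both libraries, replicate 1 on the horizontal and replicate 2 on the vertical axis, with the line of equality. Points lie along the line from Pecam1/Milr1 (27 and 29) to Hjurp/Trpm8 (145 and 148), and 479 pairs lie below it.

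The distance between the 5′ ends ranged from 1 to 987 bp with a median of 128 bp, and 602 pairs (82.0%) were at most 300 bp apart. The distance went with the shape of the accessible site more than with whether there was one. A peak in both libraries was found at 96.7% of the 306 pairs at most 100 bp apart and at 91.2% of the 68 pairs over 500 bp apart. The median highest value was 95.0 ± 2.83 (SD, n = 2) up to 100 bp, 105.5 ± 2.12 over 100 and up to 200 bp, 109 ± 5.66 up to 300 bp, 110 ± 2.83 up to 500 bp and 102.75 ± 1.06 beyond. The closest pairs were lower than each of the other 4 classes in both libraries, whereas the 3 classes over 100 and up to 500 bp lay within the spread of the libraries of their neighbours.

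The share of pairs with a peak near the midpoint was lower where the genes were further apart. In pairs at most 100 bp apart, 76.0% ± 1.16 (SD, n = 2) had a peak centred within 50 bp of the midpoint between both 5′ ends. This share was 71.5% ± 2.83 up to 200 bp, 54.2% ± 4.42 up to 300 bp, 22.7% ± 1.10 up to 500 bp, and 6 of 68 pairs (8.82%) in each library beyond 500 bp. Up to 100 bp apart, the midpoint lies within 50 bp of both 5′ ends, so that the share there cannot tell midpoint from end. In these pairs the highest peak was centred a median of 20.25 ± 0.354 bp from the nearer 5′ end. The median was 50 ± 0.707 bp up to 200 bp and 88.5 ± 1.41 bp up to 300 bp. It was 68.5 ± 2.83 bp up to 500 bp and 76.75 ± 1.77 bp beyond. Separate peaks, with 1 centred within 100 bp of each 5′ end, were found in 39.8% ± 1.10 of the pairs over 300 and up to 500 bp apart and in 29.4% ± 2.08 of those further apart. In pairs over 200 and up to 300 bp apart they were found in 16.7% ± 2.95, and in pairs over 100 and up to 200 bp apart in 1.25% ± 0.354. Peaks are 150 bp long and neighbours were rarely closer than that (12 of 590 and 19 of 571 neighbouring centres), which limits separate peaks in the closest pairs by construction. A peak within 100 bp of only 1 of the ends, or 1 peak within 100 bp of both, was found in 91.7% ± 1.16 of the closest pairs. This arrangement was found in 91.0% in each library up to 200 bp, 55.7% ± 6.63 up to 300 bp and 26.6% ± 4.42 up to 500 bp. Beyond 500 bp it was found in 47.1% in each library and was more frequent there than separate peaks. The windows of 50 and 100 bp were chosen after the positions had been seen.

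**Figure D3:**
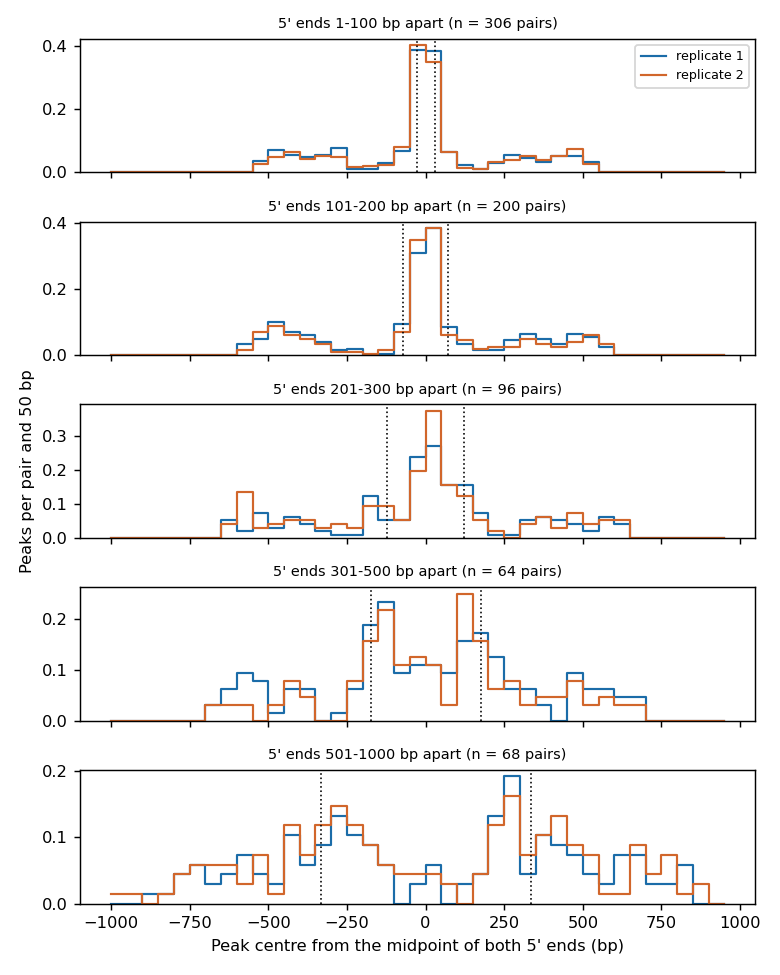
Number of peaks per pair and 50 bp along the distance from the midpoint of both 5′ ends, negative towards the minus-strand gene, for 5 classes of distance and both libraries (replicate 1 blue, replicate 2 orange). Dotted lines mark the 5′ ends at the class's median distance; 1 central maximum is seen up to 300 bp and a maximum near each 5′ end beyond 300 bp.

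The highest peak of a pair was centred between both 5′ ends in 67.2% of pairs in replicate 1 and 67.8% in replicate 2, although that interval made up a median of 11.4% of the region. In single promoters the corresponding upstream interval, also 11.4% of the window, held the highest peak in 50.6% and 51.8%. By distance the share was 51.9% ± 0.353 in the closest class, where the interval is a median of 5.48% of the region, 81.9% ± 0.304 over 100 and up to 200 bp and 66.9% ± 1.14 beyond 500 bp. Peaks outside the interval were placed about evenly: 29.8% and 28.5% of all peaks lay inside the minus-strand gene and 27.4% in each library inside the plus-strand gene.

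Both 5′ ends were covered by 1 hotspot in both libraries in 635 pairs (86.5%), where 1 hotspot covered the whole corresponding interval at 47.1% of all protein-coding genes and at 39.8% of single promoters. The share was 95.1% up to 100 bp, 91.0% up to 200 bp, 87.5% up to 300 bp and 82.8% up to 500 bp, and it was 36.8% (25 of 68) beyond. These hotspots had a median width of 923.5 and 968 bp, against 688 and 711 bp at single promoters. They reached a median of 371.5 bp into the minus-strand gene and 359 bp into the plus-strand gene in replicate 1, and 380 and 382 bp in replicate 2. At single promoters the reach was 332 and 345 bp into the gene and 300 and 313 bp upstream of it. The medians of both sides were thus alike, while within a pair the longer side exceeded the shorter by a median of 195.5 and 208 bp. Overlapping coding pairs, with a like CpG ratio of 0.779, had 1 hotspot over both ends in 57.1%, and coding and noncoding pairs in 70.7%. In overlapping pairs the hotspots over both ends had a median width of 1050.5 and 1126.5 bp. The span between the ends was not matched between these classes, so the shares cannot be compared at like distance.

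At 336 pairs (45.8%) the region held 2 or more peaks in both libraries, against 21.2% of all protein-coding genes, 16.6% of single promoters, 33.9% of coding and noncoding pairs and 60.8% of overlapping coding pairs. This share rests on the length of the region and was 17.0% with 250 bp added on each side and 65.7% with 1000 bp. Neighbouring peaks of a region had centres a median of 400 bp apart (quartiles 320 and 500 bp) in both libraries. Among the pairs with the most peaks, with 4 in replicate 1 and 5 in replicate 2, were Cbx5/Hnrnpa1, for heterochromatin protein HP1 alpha and an RNA-binding protein, Fiz1/Gm44973, Mfsd8/Abhd18 and P3h4/Fkbp10. The widest hotspot over both ends was that of Dcaf6/Mpc2, the latter for a subunit of the mitochondrial pyruvate carrier, with 2847 and 2928 bp. Those of Ankrd17/Gm9958 (2512 and 2384 bp), Cep57/Fam76b (2508 and 2386 bp) and L3hypdh/Jkamp (2185 and 2563 bp) were also among the 5 widest.

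The pair with the highest value was Hjurp/Trpm8, with 145 in replicate 1 and 148 in replicate 2. Hjurp encodes the chaperone of the centromeric histone and Trpm8 the cold-sensing ion channel, and their gene-level 5′ ends are 28 bp apart. Their RefSeq starts are 29156 bp apart, beyond the limit, as in 72 of the 520 pairs matched to RefSeq. The peak is at the same position in both libraries, chr1:88277556-88277705, over both 5′ ends. Fbxo24, an F-box gene, forms a pair with Lrch4 and with Gm20605, and the shared peak had values of 136 and 131. Among the others of the 10 highest pairs, Prr11/Ska2 had 137 and 129 (Ska2 for a kinetochore protein), Cdca2/Kctd9 had 133 and 131, and Gm10644/Asf1b, with a histone chaperone, had 131 and 128. Next to them stood Npc2/Isca2 (138 and 126), Zfp142/Bcs1l (135 and 127), Srgap2/Fam72a (130 and 132) and Cryzl1/Itsn1 (129 and 131). Apart from Hjurp/Trpm8, the means over both libraries lay between 129.5 and 133.5, with SDs of up to 8.49 (n = 2), so that their order is not resolved.

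At the low end stood Pecam1/Milr1 (27 and 29), with the endothelial adhesion molecule PECAM-1, Kctd19/Lrrc36 (30 and 25), Zfp944/Zfp758 (37 and 27), Sncg/Mmrn2 (38 and 29), Ifit1bl2/Ifit1 (38 and 37), with an interferon-induced gene, and Col4a4/Col4a3 (40 and 41). Pecam1, Kctd19 and Sncg pairs were named after their values had been seen. In bulk tissue, few cells with an open site and a weakly open site in all cells cannot be told apart. Of the well known pairs looked up by name, 6 fitted the rule. The DNA damage kinase gene Atm and Npat, a coactivator of histone genes, shared a peak of 126 and 119, centred 3 bp from the midpoint in both libraries. Mrps12/Sars2 had 120 and 116, Brca1/Nbr1 116 and 108, and Mcm4/Prkdc, a replicative helicase subunit and the catalytic subunit of DNA-dependent protein kinase, 114 and 118. Psmb1/Tbp, a proteasome subunit and the TATA-binding protein, had 106 and 100. These 5 lay at or above the median of all pairs and Col4a4/Col4a3 far below it in both libraries. Of the remaining well known pairs, 7 overlap at their annotated 5′ ends and were not members, among them the mitochondrial chaperonin pair Hspd1/Hspe1 (116 and 122) and the basement membrane collagen pair Col4a1/Col4a2 (99 and 78).

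Of 78 mitochondrial ribosome genes, 18 (23.1%) lay in a pair, against 6.96% of all protein-coding genes. This share was 19.7% for the respiratory chain and coenzyme Q, 12.5% for mitochondrial import and chaperones and 10.7% for fatty acid and ketone metabolism. All 18 pairs of mitochondrial ribosome genes had a peak in both libraries, where 95.8% of all pairs did, with a median highest value of 98.5 ± 2.83 (SD, n = 2). They ranged from Lrrc46/Mrpl10 (71 and 59) and Zfp661/Mrps5 (60 and 63) to Mrps18b/Ppp1r10 (133 and 126). All 27 pairs with a gene of the respiratory chain or coenzyme Q had a peak in both, with a median of 101.5 ± 3.54. Zfp142/Bcs1l, the latter for an assembly factor of complex III, and Ndufa2/Ik (118 and 126), with a complex I subunit, stood among the highest, and Fam126b/Ndufb3 (78 and 79) among the lowest. All 11 pairs of fatty acid and ketone metabolism had a peak, with a median of 104.5 ± 0.707. Hadha/Hadhb, the subunits of the mitochondrial trifunctional protein of fatty acid oxidation, had 93 and 83, among the lowest of its list. Styxl1/Mdh2 had 120 and 121, and Bckdha/Exosc5, with a subunit of branched-chain ketoacid dehydrogenase, 122 and 122. These medians were within 4 of the median of all pairs, 102 ± 2.83.

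Of 203 DNA replication and repair genes, 51 (25.1%) were in pairs, against 6.96% of all protein-coding genes, and 51 of their 52 pairs had a peak in both libraries. The exception was Pinlyp/Xrcc1. Their median was 99.0 ± 2.83, with Xrcc3/Zfyve21 (127 and 124) and Atm/Npat among the highest and Smc1b/Ribc2 (45 and 50), with a meiotic cohesin subunit, lowest. RNA processing and transcription genes had peaks in both at 70 of 71 pairs with a median of 104 ± 1.41, for example Rita1/Ddx54 (130 and 127) and Dtl/Ints7 (124 and 130). All 21 pairs of centrosome and primary cilium genes had a peak, with a median of 110.5 ± 3.54 and with Tmtc3/Cep290 (134 and 125) the highest. Peaks in both were also found at 25 of 26 pairs of translation genes, 51 of 54 of ubiquitin and proteasome genes, 23 of 24 of zinc finger genes, all 7 of mitochondrial import genes, all 5 of collagen and matrix genes and all 3 of liver and barrier tissue genes. Each of these shares stands beside 95.8% for all pairs, so that none of them sets its list apart. The lists follow symbols, and some genes in them have another role. Col4a3bp, which is not a collagen gene, counts under collagen and matrix. The receptor genes Tas1r1 and Vmn1r4 count under liver and barrier tissue.

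The lists of motile cilium and sperm genes and of immune genes gave lower medians than the 102 ± 2.83 of all pairs. The lists of heart muscle (106 ± 4.24), collagen and matrix (104.5 ± 6.36) and liver and barrier tissue genes (102.5 ± 2.12) did not. Of the 23 pairs with a gene of motile cilia or sperm, 19 (82.6%) had a peak in both libraries, against 95.8% of all pairs, with a median of 83.5 ± 4.95. The highest were Tom1l2/Drc3 (127 and 117), Ccdc151/Prkcsh (124 and 119) and Fam219a/Dnaic1 (123 and 120), and Dgcr2/Tssk2, Nmur1/Tex44 and Aspa/Spata22 had no peak. High pairs and pairs without a peak alike had a partner outside this list, such as Tom1l2 and Dgcr2. Of 536 immune genes 9 (1.68%) were in pairs, and 6 of 8 pairs (75%, against 95.8% of all pairs) had a peak in both, with a median of 75.25 ± 5.30. Park7/Tnfrsf9 (106 and 104) pairs a stress-response gene with a lymphocyte receptor gene, and Plgrkt/Cd274 (75 and 67), with the gene for PD-L1, was lower. The immune list also took in Cd3eap/Ppp1r13l (83 and 76) by symbol, although Cd3eap encodes an RNA polymerase I subunit. With 8 and 23 pairs no test of these lists against the others was made.

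Of 225 heart muscle genes, 9 (4.0%) lay in 8 pairs, against 6.96% of all protein-coding genes, and the 5′ ends were a median of 556 bp apart. Peaks were present in both libraries at 6 of the 8 pairs, against 95.8% of all pairs. Cdc27/Myl4 joins a subunit of the anaphase-promoting complex to the atrial essential myosin light chain and had 98 and 90. Myl12b/Myom1, with the gene for the M-band protein myomesin, had 116 and 110, and Rfxank/Mef2b had 117 and 114. The mean was 104.5 ± 4.95 (SD, n = 2) at Obsl1/Inha and 91.5 ± 13.4 at Actn3/Zdhhc24, with the fast-muscle alpha-actinin. Lrrc42/Hspb11 had 110 and 105, and Hspb11, listed by its symbol, encodes a protein of intraflagellar transport. In none of these pairs can the peak be assigned to 1 gene rather than the other. No peak was centred in the regions of Klc3/Ckm and Smyd1/Cd8b1. At another annotated start of the same gene, however, Ckm, the muscle creatine kinase, had a peak of 95 and 85, and Smyd1, a methyltransferase of heart and skeletal muscle, one of 93 and 77.

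Histone genes made up 14 pairs, and 27 of 79 histone genes (34.2%) were in one, against 6.96% of all protein-coding genes. Peaks in both libraries were found at 11 (78.6%), against 95.8% of all pairs. Their median was 108 in each library, and the highest were Hist1h2ac/Hist1h2bc (121 and 113) and Hist1h2ae/Hist1h2bg (120 and 111). One hotspot covered both 5′ ends in both libraries in 2 of the 14, against 86.5% of all pairs and 87.5% of those over 200 and up to 300 bp apart; the median distance of histone pairs was 259.5 bp. Runs of 31 bases that occur elsewhere in the reference genome made up 10.7% to 100% of these 14 regions, with a median of 54.1%, and over 50% in 9 of them. Their part in the number of hotspots was not tested. Hist1h2bq/Hist1h2ao and Hist1h2ap/Hist1h2br had no peak and no hotspot despite CpG ratios of 0.974 and 0.957. In both regions the repeated share was 100%. A further histone pair without a peak or hotspot, Hist1h2ba/Hist1h2aa, had a CpG ratio of 0.773 and a repeated share of 16.9%. The part of repeats in the missing peaks was not tested. Over all pairs the median repeated share was 0, and 12 pairs had more than 50%, of which 9 had a peak in both libraries and 3 had none.

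No peak in either library was found in 28 pairs. Of these, 18 had a CpG ratio under 0.4, and the median was 0.243, against 0.776 for all pairs. In 17 of the 28, at least 1 gene had a peak at another of its annotated starts in both libraries. Rps2, for a protein of the small cytosolic ribosomal subunit, had 117 and 115 there, Xrcc1, for a scaffold of DNA strand break repair, 128 and 112, the cyclin gene Ccnt1 112 and 110, and the transcriptional corepressor gene Trim28 89 and 79. The outermost annotated start, which the rule uses, thus did not mark the open promoter of these genes. Both genes were matched to RefSeq starts in 14 of the 28 pairs, and in 5 of these the starts were also head to head within 1000 bp, against 439 of 520 over all pairs. Among pairs that had no peak at any start of either gene, Bhmt2/Dmgdh holds enzymes of choline and glycine metabolism known from liver, and Gml/Gml2 and Il11/Tmem190 are further examples. Among the 439 pairs whose RefSeq starts also met the limit, 98.2% had a peak in both libraries.

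Bidirectional and single promoters differed in the short sequences they held. In the 300 bp centred between both 5′ ends, the ETS letters CCGGAAG were present in 208 pairs (28.3%), against 11.5% of all protein-coding promoters and 8.92% of single ones. The difference held among promoters with a CpG ratio over 0.8, with 31.8% against 17.4%, and inside the highest peak itself, with 21.0% ± 0.180 against 11.2% ± 0.366 (SD, n = 2 libraries). CCAAT was present in 44.3% of pairs, 37.7% of all and 37.3% of single promoters, and with dense CpG in 45.1% against 32.4%. YY1 letters, AAGATGGC, were present in 61 pairs (8.31%), against 3.28% of all and 2.58% of single promoters, and in 9.26% against 4.86% with dense CpG. All 61 pairs with them had a peak in both libraries, as did 43 of 43 with ZNF143 letters and 207 of 208 with ETS letters, beside 95.8% of all pairs.

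For other letters the difference from single promoters was smaller, or reversed, among promoters with a CpG ratio over 0.8. GGGCGG (SP) was present in 67.8% of pairs, 45.0% of all and 40.4% of single promoters, but with a ratio over 0.8 in 75.0% of pairs and 80.6% of single promoters. GCATGCGC (NRF1) was present in 6.68%, 3.47% and 2.99%, and with dense CpG in 6.79% of pairs and 6.53% of single promoters. CTCGCGAG (BANP) was present in 3.81%, 1.23% and 0.907%, and with dense CpG in 3.40% and 3.26%. Thus SP, NRF1 and BANP letters were about as frequent, or less frequent, at bidirectional promoters within this class of CpG ratio. It held 22 of the 49 pairs with NRF1 letters and 11 of the 28 with BANP letters. ACTACAA (ZNF143) was found in 5.86% of pairs and 3.68% of all promoters, TGACGTCA (CRE) in 4.50% and 2.41%, and CACGTG (E-box) in 10.9% and 7.79%. With dense CpG, ZNF143 letters were in 4.01% of pairs and 3.26% of single promoters, CRE letters in 5.25% and 4.35%, and E-box letters in 12.3% and 11.6%. Only 13 of the 43 pairs with ZNF143 letters were in this class. For none of these letters were classes of lower CpG ratio compared, so whether the differences went with CpG was not tested there.

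The TATA box and letters of factors known from heart were scarcer over all promoters, but only in part among those with a CpG ratio over 0.8. TATAAA, the TATA box, was present in 4.50% of pairs, 11.8% of all and 13.3% of single promoters. AGATAA, for the GATA family, was present in 4.77%, 9.12% and 10.1%, and GGAATG (TEAD) in 9.13%, 13.0% and 13.5%. With a CpG ratio over 0.8 the TATA box was in 3.09% of pairs and 4.51% of single promoters, TEAD letters in 7.72% and 8.55%, and GATA letters in 4.01% and 2.37%, the opposite order. TATTTTTAG (MEF2) was in none of the 734 windows, against 0.442% of all promoters. At least 1 of the 13 sets of letters was present in all but 48 pairs (6.54%), and in all but 16.7% of single promoters. All 13 were searched on both strands, none contains another, and a match is a description of the letters, not a bound site.

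Pairs with CCAAT had higher peaks than pairs without. The median highest value was 112 and 107 with at least 1 CCAAT in the 300 bp, and 98 and 94 without. It was 98 and 94 for the 409 pairs without a box, 107 and 104 for the 176 with 1 box and 115 and 110 for the 149 with 2 or more. The share with a peak in both libraries did not differ in this direction (95.4% with and 96.1% without). Pairs with more boxes also had 5′ ends further apart (medians of 99, 145 and 176 bp), but the medians were higher with CCAAT in each of the 5 distance classes and in both libraries. Up to 100 bp they were 104 and 99.5 against 93 and 89, and over 200 and up to 300 bp 115 and 111 against 104 and 99. With a CpG ratio over 0.8 they were 112.5 and 107 against 99 and 95.5. The order was the opposite with a ratio under 0.4 (64 and 61 against 75 and 73, in 5 and 7 pairs with peaks) and differed between libraries from 0.4 to 0.6.

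**Figure D4:**
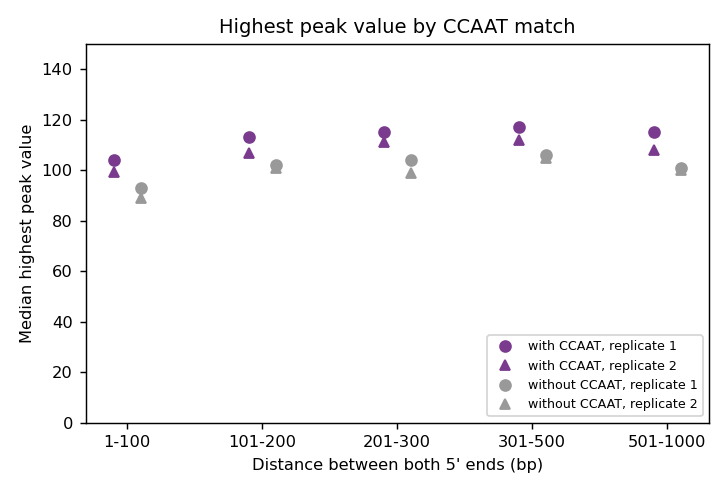
Median highest peak value of pairs with (purple) and without (grey) CCAAT in the 300 bp centred between both 5′ ends, by distance class, with circles for replicate 1 and triangles for replicate 2. In all 5 classes the pairs with CCAAT lie higher, for example at 115 and 111 against 104 and 99 over 200 and up to 300 bp.

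This was not limited to pairs: single promoters with CCAAT had medians of 92 and 88 and those without 77 and 74. It was also not limited to CCAAT. Medians were 113 and 107 in pairs with ZNF143 letters, 110 and 104 with TEAD letters and 109 and 104 with YY1 letters. Pairs without each of these had 104 and 100. With SP, TATA and GATA letters the medians were slightly higher than without in both libraries, and with E-box and BANP letters they were lower. Matches to ETS letters went with no higher value, with 103 and 100 in pairs with them and 105 and 100 in pairs without. At least 2 CCAAT boxes were found in 149 pairs (20.3%), 11.9% of all and 11.0% of single promoters. Mrps12/Sars2, printed above, has 4 boxes on 1 strand between its 5′ ends and a peak of 120 and 116 centred 4.5 bp and 15.5 bp from the midpoint. The interval of Cdca2/Kctd9 has no match, but its 300 bp hold CCAAT and TEAD letters beyond the 5′ ends, so that it counts among the pairs with CCAAT. Among the 48 pairs without any of the 13 sets of letters in the 300 bp, Zfp91/Lpxn had 133 and 121 and Rpgrip1l/Fto 129 and 121. Swt1/Trmt1l, with ZNF143 and SP letters, had 119 and 130, centred 8 and 12 bp from the midpoint. In Mrps18b/Ppp1r10, whose 44 bp hold NRF1 and ETS letters, the highest peak lay 419 and 399 bp from the midpoint, inside the plus-strand gene.

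At the limit of 1000 bp the values of the 3 nearest pairs on each side overlapped, but 3 pairs are too few to show or exclude a difference. The 3 widest pairs inside were Btf3l4/Txndc12 (987 bp, 110 and 109), Asphd1/Sez6l2 (981 bp, 62 and 58) and Zfyve26/Rad51b (978 bp, 117 and 102). The 3 next pairs outside were Gpr108/Trip10 (1009 bp, mean 95.0 ± 8.49), Sgsm2/Tsr1 (1011 bp, mean 98.0 ± 4.24) and Dirc2/Hspbap1 (1019 bp, 76 and 79).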

How the data were processed

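DNase-seq peaks and hotspots of 2 libraries of newborn mouse heart were used as the authors deposited them, called separately per library on mm10 per the text deposited with them. Aligner, caller and versions: not given in the sources used here. Each peak of 150 bp carries the authors' signal value, with no normalization stated and a ceiling of 150. Each deposited hotspot carries a −log10 of the q-value, from 1.30 up to a ceiling of 100. The deposited hotspots' score restates that value and was not used in results. Repeated peak lines (9 and 10) were counted once, and 9721 and 7935 values written with a decimal point were kept, their meaning being unknown.

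A peak belonged to a region if its centre lay inside it. Values were compared with Python 3.11.15, numpy 2.4.6, pandas 2.3.3 and scipy 1.17.1, and sequence was read with pysam 0.24.0 from GRCm38.p6. No test was possible: with 2 libraries in 1 group the smallest two-sided exact sign-flip p is 0.5. Pairing, peak assignment and hotspot cover were tested on simulated data. The single-promoter window ran from 500 bp inside the gene to 500 bp beyond the members' median distance of 128 bp upstream, 1129 bp in all.

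Members and lists were chosen with earlier results of these data known. The 16 gene lists are symbol patterns, which also took in genes of other roles, such as Col4a3bp, Cd3eap, Tas1r1, Vmn1r4 and Mdh2. Pairs were named by a rule: a fixed set of known pairs, the 10 highest, up to 12 without a peak, the 5 with the largest library difference, the widest hotspots and the most peaks, 3 on each side of the distance limit, and up to 3 highest and lowest of each list. Other pairs named, such as those without a peak whose genes had another open start, were chosen after their values were seen. Some pairs that this rule selects are not reported here.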

Additional observations from a re-analysis of the deposited data

How the results depend on the processing

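The 2 differences from single promoters kept their direction under each alternative run. The motif, CCAAT and gene list values were not rerun under alternatives. Of the alternatives, 2 (leaving out values written with a decimal point, and keeping only pairs whose RefSeq starts also meet the limit) were chosen after seeing the data. For pairs with a peak in both libraries, the difference from single promoters was 43.7 percentage points in the share, where the per-library shares gave 40.9 and 42.1. Keeping those RefSeq pairs moved the share with a peak in both libraries to 98.2%, 1 hotspot over both 5′ ends to 91.3%, highest peaks between the ends to 65.3%, and the differences from single promoters to 46.1 points (share in both libraries) and 22.5 (median value, from 21.5). With 5′ ends at most 500 bp apart, 1 hotspot covered both in 91.6%. The share with 2 or more peaks was 50.8% by overlap of at least 1 bp, 17.0% with a flank of 250 bp, 65.7% with 1000 bp, 35.0% with only peaks at or above the library median, and 55.9% to 60.5% with 1 library left out. Highest peaks lay between the ends in 70.6% with a flank of 250 bp and 66.2% with 1000 bp. The difference in the share with a peak in both libraries was 46.7 points with a flank of 250 bp, 40.8 with 1000 bp, 48.7 with the stronger peaks, and 40.9 to 42.1 with 1 library left out, which are the per-library values. The difference in median value was 20.5 with a flank of 250 bp, 22.25 without pairs that have another gene over the region, and 16.5 with the stronger peaks. No paired analysis was possible because there is only 1 group. Depth is unknown, and the ceiling of 150 limits differences among the highest peaks.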
